A study of Homo sapiens with 3 samples.

Results

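The SR and hnRNP genes encode the main families of proteins that choose which exons of a pre-mRNA are joined. They were taken from the gene table of an RNA sequencing experiment by symbol alone. SRSF genes, TRA2A and TRA2B were counted as SR members, and HNRNP genes, RBMX and PTBP1 to PTBP3 as hnRNP members. Of 14949 genes listed, 38 were members, namely 13 SR and 25 hnRNP genes. A further 15 pseudogenes with family names, which are copies scattered through the genome, were set aside.

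SR proteins carry RNA recognition motifs and a domain of repeated arginine and serine residues, which kinases of the SRPK and CLK families phosphorylate. They bind exonic enhancers and recruit the spliceosome. hnRNP proteins coat nascent RNA, often bind intronic or exonic silencers and frequently oppose SR proteins at the same exon. Many genes of both families hold poison exons, whose inclusion sends the transcript to nonsense-mediated decay and keeps the level of the protein within bounds. HNRNPA2B1, HNRNPC, HNRNPG (the product of RBMX) and SRSF3 are known from earlier work for links to N6-methyladenosine (m6A), the mark that METTL3 places on RNA.

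Expression was measured in MIAPaCa-2 cells, a human line established from pancreatic cancer. There were 3 libraries: cells with a control short hairpin and no treatment (sh-CTL, the control library), untreated cells with a hairpin against METTL3 (sh-METTL3, the knockdown library), and sh-CTL cells kept for 24 h in 80 nM NMS-P937, which inhibits PLK1 (sh-CTL + PLK1i, the inhibitor library). PLK1 is a kinase needed for mitosis. The question was how losing METTL3 and inhibiting PLK1 each changed gene expression. The METTL3 knockdown line was made elsewhere and given to the study, and the number of clones behind each hairpin line was not given in the sources used here. Each group held 1 library, so differences have no replicate check, and neither a p-value nor a standard deviation over samples could be had. Bulk RNA cannot tell fewer cells of a kind apart from less RNA per cell.

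The reads in listed genes came to between 37449337 and 47727490 per library. METTL3 itself had 3378 reads in the control, 1781 in the knockdown and 4223 in the inhibitor library. After scaling for depth, METTL3 in sh-METTL3 was at 41.9% of sh-CTL, as its label says. The epithelial keratins KRT8, KRT18 and KRT19 were listed at a normalized count of 3770 or more in every library, whereas EPCAM and CDH1, which define many epithelia, were not listed. VIM, a marker of mesenchymal cells, had 244755 normalized counts in the control, 185206 in the knockdown and 246423 in the inhibitor library. CDH2 was not listed. Markers of acinar cells, islets and endothelium were not listed either. Of the fibroblast markers COL1A1 had 6 to 36 reads and COL1A2 a normalized count of 40961 to 51425. CD68, a macrophage marker that tumour lines can also express, had 1505 to 3499 reads, while PTPRC and CD3E were not listed.

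Levels below are normalized counts, that is reads divided by a size factor for each library. A change is the difference of log2(normalized count + 1) between 2 libraries, a scale that makes the differences of genes with few reads look smaller. It is followed by its exact 95% Clopper-Pearson interval. Such an interval covers counting error only and compares 2 libraries, not 2 conditions. Genes are called higher or lower when they differed by at least 1.2-fold, which is 0.26 on the log2 scale. Both treated libraries were set against the same sh-CTL library.

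The genome holds many intronless copies of HNRNPA1, which can share its reads. A stretch of 60 coding bases shows how little separates them. It was picked as the stretch, among those all copies shown cover, where HNRNPA1L2 differs most from HNRNPA1. Positions 589 to 648 of the coding sequence are given 5′ to 3′ as annotated in GRCh37, with bases that differ from HNRNPA1 in capitals.
HNRNPA1: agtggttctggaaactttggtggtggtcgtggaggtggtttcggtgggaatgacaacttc
HNRNPA1L2: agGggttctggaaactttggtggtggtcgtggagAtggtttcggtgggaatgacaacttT
HNRNPA1P48: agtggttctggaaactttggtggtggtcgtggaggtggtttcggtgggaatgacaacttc
HNRNPA1P7: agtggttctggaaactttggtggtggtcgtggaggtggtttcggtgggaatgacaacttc
In this window HNRNPA1L2, an intronless gene of the hnRNP A1 family, differed from HNRNPA1 at 3 bases and the other copies shown at 0. Over 960 aligned coding bases, HNRNPA1L2 was 98.4% identical to HNRNPA1, HNRNPA1P48 was 99.4% and HNRNPA1P7 was 99.1%. Of the copies not shown, HNRNPA1P10 was 99.6% identical over 959 bases and HNRNPA1P16 94.4% over 954. How reads that match several copies were shared out was not given in the sources used here, so the values of HNRNPA1L2 and of the copies are uncertain.

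The families were expressed well above the middle of the table. The median over members of the mean normalized count was 8772 for SR genes and 15026 for hnRNP genes, against 1341 for all listed protein-coding genes. Reads of SR genes made up 0.309% of the control, 0.308% of the knockdown and 0.297% of the inhibitor library. For hnRNP genes the shares were 1.17% (exact 95% binomial interval 1.17 to 1.18%), 1.18% (1.18 to 1.18%) and 1.14% (1.14 to 1.14%). The METTL3 knockdown library thus gave both families nearly the same share of reads as its control, and the inhibitor library gave both a somewhat smaller share.

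Per kilobase of the canonical transcript, the 5 most abundant members were all hnRNP genes. This measure compares genes only roughly, because the transcripts expressed can differ in length from the canonical one. HNRNPA2B1, a reader of exon silencers and of m6A, led with 20758 normalized counts per kilobase in the control, 17992 in the knockdown and 19915 in the inhibitor library. HNRNPC, which binds uridine tracts and helps to package nascent RNA, followed with 15076, 15133 and 14765 in the same order. HNRNPK, which binds cytosine-rich RNA, had 14314, 14127 and 13942. These 3 genes kept this order in each of the 3 libraries. HNRNPA1 had 12613 normalized counts per kilobase in the control, 15355 in the knockdown and 11618 in the inhibitor library. HNRNPH1, which binds runs of guanine, had 12880, 11826 and 13046. In sh-METTL3 the level of HNRNPA1 per kilobase thus lay above those of HNRNPC, HNRNPK and HNRNPH1, whereas in the other 2 libraries it lay below all 3. Among SR genes, SRSF2 was the most abundant per kilobase, with 8211, 8493 and 7885. Before division by length SRSF1 lay above it, with 24528 normalized counts against 15502 in the control. The lowest levels belonged to HNRNPA1L2 (98 to 147 per kilobase) and to PTBP2 (245 to 276), the form of the polypyrimidine tract binding protein that neurons use in place of PTBP1.

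**Figure D1:**
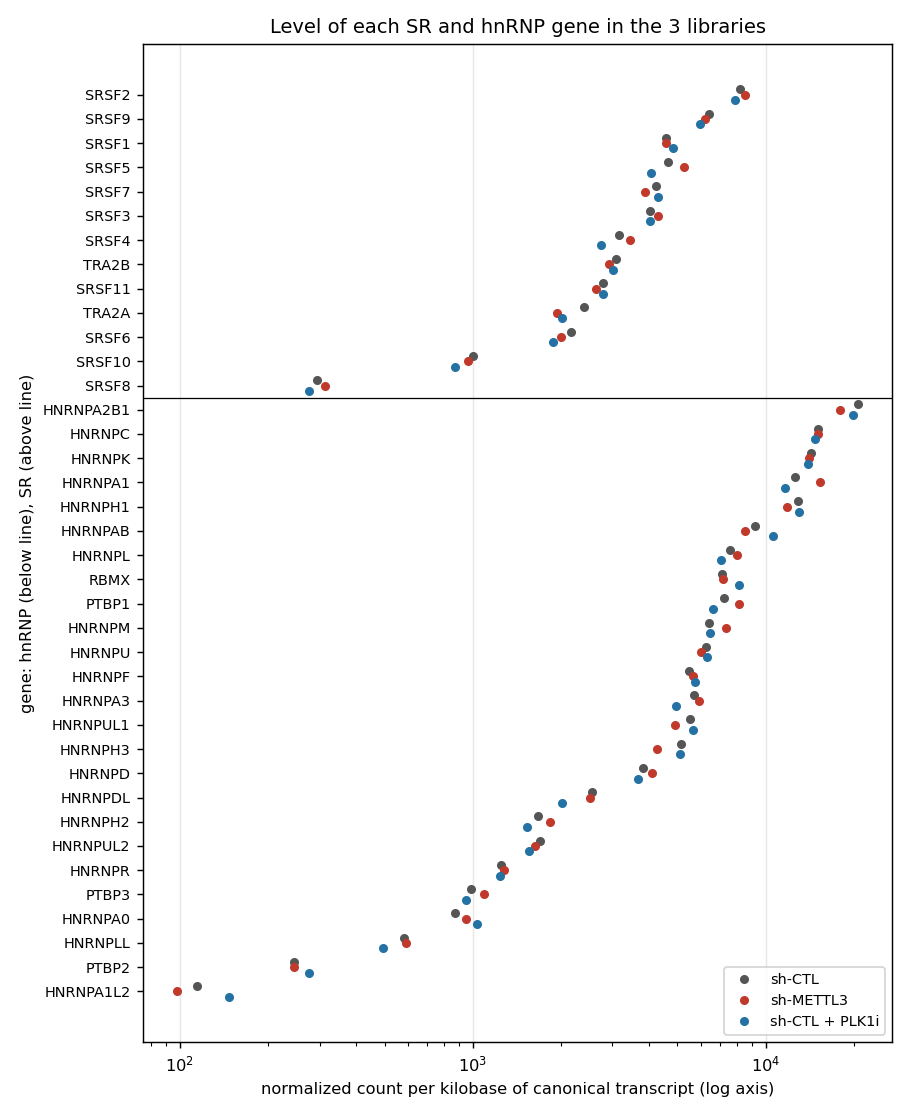
Normalized counts per kilobase of canonical transcript (log axis) of the 13 SR genes (above the line) and 25 hnRNP genes (below it), 1 point for each of the 3 libraries. For most genes the points lie close together beside the spread between genes, which runs from 98 for HNRNPA1L2 to 20758 for HNRNPA2B1, and there are no error bars because each group held 1 library.

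The METTL3 knockdown library was compared with its control first. HNRNPA1 was higher, and HNRNPH3 and TRA2A were lower. These 3 of 38 members (7.89%) differed by at least 1.2-fold, whereas 37.2% of all listed genes and 23.0% of the 9074 abundant genes, those averaging 500 normalized counts or more, did so. By direction, 1 member was higher against 19.1% of all listed genes, and 2 were lower against 18.2%. At 1.5-fold and at 2-fold the members gave 0, against 14.5% and 6.37% of all listed genes. The median log2 change was -0.04 for SR genes and 0.01 for hnRNP genes, beside 0.00 over all listed genes and -0.02 over the abundant genes. The standard deviation of the change was 0.13 across the members, 0.32 across the abundant genes and 0.65 across all listed genes. It was thus smaller in the abundant genes than in all listed genes. The median levels of both families lie far above 500, so neither reference was matched to the members for level. Whether the families differ from genes of like level was not tested.

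HNRNPA1 represses exons and is a well known antagonist of SRSF1. It had 47222 normalized counts in the control, 57489 in the knockdown and 43498 in the inhibitor library, so the knockdown library was the high one. The log2 change in sh-METTL3 was 0.28 (0.27 to 0.30). Its gene (ENSG00000135486) lies on the plus strand of GRCh37 chr12:54673977-54680872, and the other genes that start within 5 Mb had a median change of -0.00. The copies HNRNPA1P48, which the annotation lists as protein coding, and HNRNPA1P7 showed 0.28 (0.18 to 0.37) and 0.45 (0.28 to 0.62), and HNRNPA1P10 showed 0.06 (-0.25 to 0.37). HNRNPA1L2 had only 132, 142 and 215 reads, and its change of -0.22 (-0.58 to 0.13) in sh-METTL3 was within counting error.

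HNRNPH3 is a member of the guanine-run binding group together with HNRNPF, HNRNPH1 and HNRNPH2. It had 12141 normalized counts in the control, 10061 in the knockdown and 12023 in the inhibitor library, which left sh-METTL3 low and the other 2 libraries together. The log2 change was -0.27 (-0.31 to -0.23). HNRNPH3 (ENSG00000096746) lies on the plus strand of chr10:70090931-70102950, where the neighbouring genes within 5 Mb had a median of 0.04. With upper-quartile scaling the change was -0.25, just short of 1.2-fold. Within its group HNRNPH1 showed -0.12, HNRNPF 0.04 and HNRNPH2 0.14, and their neighbours had medians of 0.03, 0.13 and 0.13. The ratio of HNRNPH2 to HNRNPH1 reads was 0.133 in the control, 0.160 in the knockdown and 0.121 in the inhibitor library. RPL36A-HNRNPH2, a read-through gene that overlaps HNRNPH2, showed 0.18 in sh-METTL3. Under the inhibitor it showed 0.13 where HNRNPH2 showed -0.12. Its reads may be split with those of HNRNPH2, so this ratio is uncertain.

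TRA2A and its paralogue TRA2B are SR-like proteins that bind enhancers rich in GAA. TRA2A had 4291 normalized counts in the control, 3473 in the knockdown and 3601 in the inhibitor library, so sh-CTL was the high library and the other 2 were alike. The change in sh-METTL3 was -0.31 (-0.37 to -0.24), the lowest of any member. TRA2B showed -0.08 (-0.12 to -0.04). TRA2A (ENSG00000164548) lies on the minus strand of chr7:23544399-23571660, and genes of that chromosome were lower in sh-METTL3 as a whole. Of 632 chromosome 7 genes averaging 50 normalized counts or more, 525 lay below 0 and the median was -0.25. The 36 other genes within 5 Mb of TRA2A had a median of -0.25, and relative to it TRA2A differed by -0.055, which is short of 1.2-fold. In sh-CTL + PLK1i the chromosome 7 median was 0.01 and the change of TRA2A was -0.25 (-0.32 to -0.19).

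HNRNPA2B1 lies 2.67 Mb from TRA2A, on the minus strand of chr7:26210771-26241149 (ENSG00000122566). It had 75308 normalized counts in the control, 65274 in the knockdown and 72250 in the inhibitor library, so the knockdown library was the low one. The change in sh-METTL3 was -0.21 (-0.22 to -0.19), short of 1.2-fold, and its 47 neighbours had a median of -0.31. CBX3, the neighbour that shares its promoter region on the opposite strand, showed -0.32. Relative to the median of its neighbours HNRNPA2B1 differed by 0.099. The ratio of HNRNPA1 to HNRNPA2B1 reads, not adjusted for the chromosome 7 shift, was 0.627 in the control, 0.881 in the knockdown and 0.602 in the inhibitor library.

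**Figure D2:**
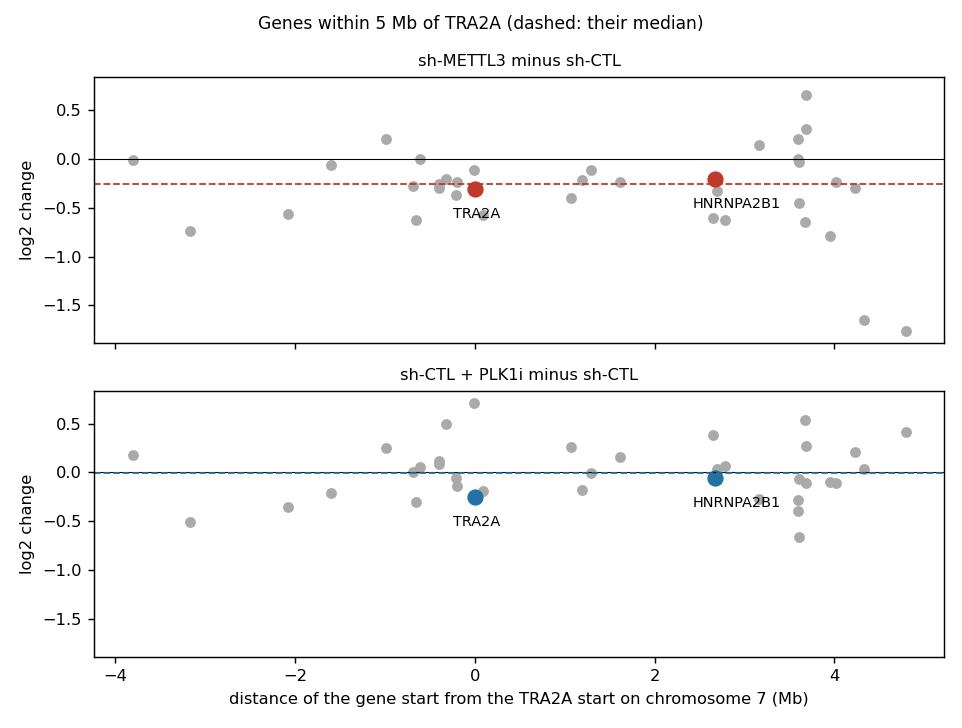
log2 change of the genes that start within 5 Mb of TRA2A on chromosome 7 (grey points), plotted by the distance of their starts from that of TRA2A in Mb. The dashed line is the median of the 37 genes, TRA2A included, which is -0.26 in sh-METTL3 (upper panel) and -0.01 in sh-CTL + PLK1i (lower panel), and TRA2A and HNRNPA2B1 are the coloured points.

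Of the other members that moved most in sh-METTL3, HNRNPM, which binds GU-rich RNA, had 15823, 18222 and 16052 normalized counts in the control, knockdown and inhibitor libraries. PTBP1, a repressor that binds pyrimidine tracts, had 23086, 26044 and 21155. Both were highest in sh-METTL3, with changes of 0.20 (0.17 to 0.24) and 0.17 (0.15 to 0.20). The genes within 5 Mb of them on chromosome 19 had medians of 0.16 and 0.18. SRSF5, an SR protein with a pair of RNA recognition motifs, had 6959, 7885 and 6077 normalized counts and a change of 0.18 (0.13 to 0.23), while its neighbours had a median of -0.04. None of the 3 reached 1.2-fold.

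Of the other members linked to m6A above, HNRNPC showed 0.01 (-0.01 to 0.02) in sh-METTL3, RBMX 0.00 (-0.03 to 0.03) and SRSF3 0.09 (0.06 to 0.12). SRSF10, an SR-like protein that can repress splicing, showed -0.06 (-0.11 to -0.01). HNRNPA2B1, described above, was the lowest of those linked to m6A at -0.21, with a neighbour median of -0.31. Relative to that median it differed by 0.099. Over the remaining hnRNP groups, HNRNPD, HNRNPDL and HNRNPAB, which bind AU-rich RNA, showed 0.11, -0.02 and -0.11. HNRNPL and HNRNPLL, which bind CA repeats, showed 0.08 and 0.02. HNRNPU, HNRNPUL1 and HNRNPUL2, large nuclear proteins that bind RNA and chromatin, showed -0.06, -0.17 and -0.05. HNRNPK and HNRNPR showed -0.02 and 0.04, HNRNPA0 and HNRNPA3 0.12 and 0.06, and PTBP2 and PTBP3 0.00 and 0.15. Among the SR genes not yet named in this comparison, SRSF4 was the highest at 0.12 and SRSF7 the lowest at -0.12, with SRSF1, SRSF2, SRSF6, SRSF8, SRSF9 and SRSF11 between them. The counting interval lay above 0 for 10 of 25 hnRNP genes and below it for 7, and for 4 and 6 of 13 SR genes. Over the abundant genes the shares were 29.9% above and 35.4% below 0, and over all listed genes 27.1% and 28.2%. Counting error is small at these depths, and the variation between libraries of 1 group was not measured.

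**Figure D3:**
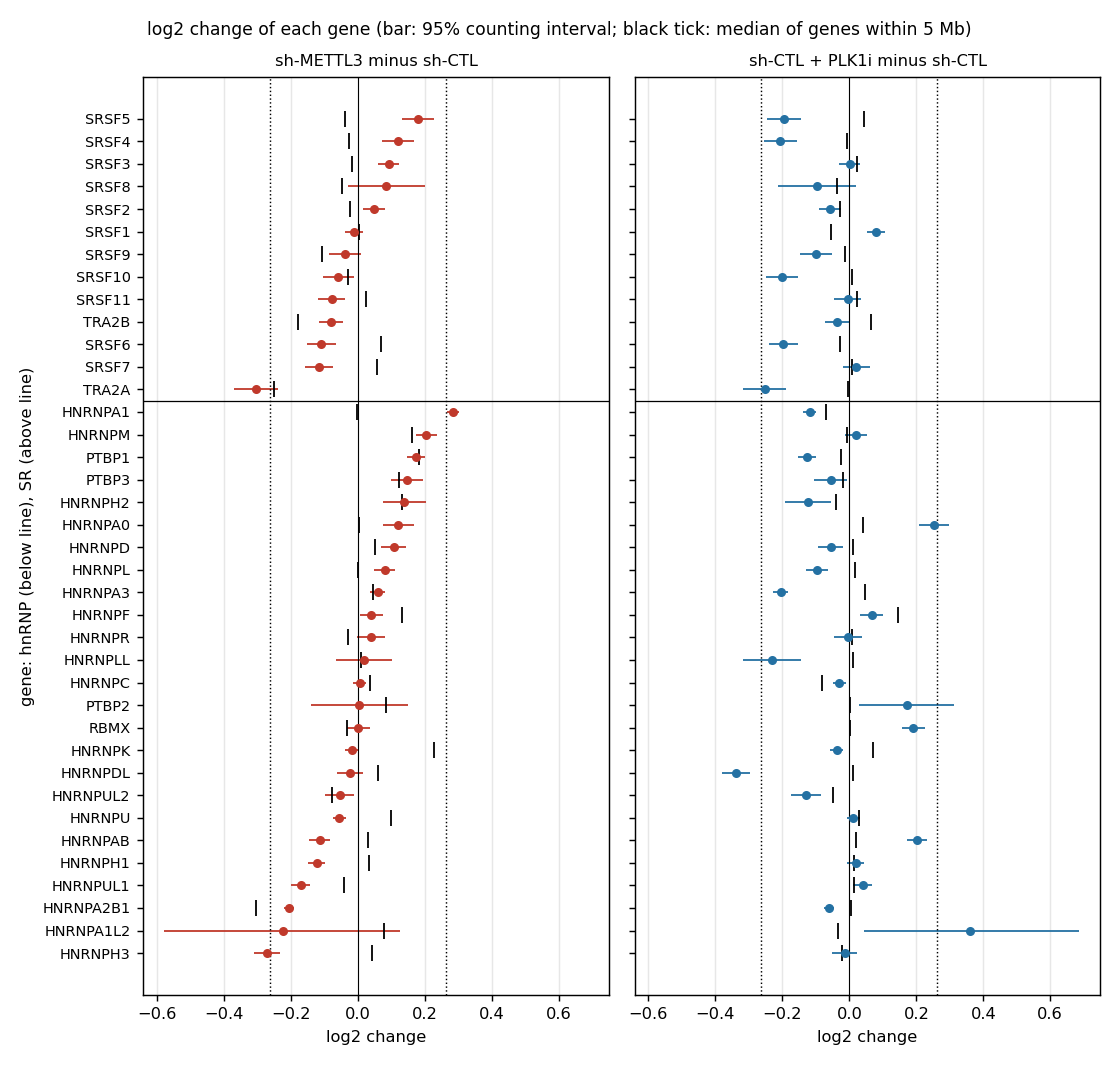
log2 change of each member in sh-METTL3 (left) and sh-CTL + PLK1i (right) against sh-CTL, with the 95% counting interval as a bar, 1.2-fold as dotted lines and the median of the other genes within 5 Mb as a black tick. In sh-METTL3 HNRNPA1 lies right of the dotted lines and TRA2A and HNRNPH3 left of them, with TRA2A close to its tick, and in sh-CTL + PLK1i HNRNPDL lies to the left and HNRNPA1L2 to the right.

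PLK1 inhibition was compared with the same control. HNRNPDL was lower and HNRNPA1L2 was higher, and these 2 of 38 members (5.26%) were the ones past 1.2-fold. Of all listed genes 27.6% were, and of the abundant genes 12.8%. By direction, 1 member stood beside 13.2% of all listed genes that were higher and 1 beside 14.4% that were lower. At 1.5-fold and at 2-fold there were 0 members, against 7.99% and 2.52% of all listed genes. The median change was -0.10 for SR genes and -0.03 for hnRNP genes, beside 0.00 over all listed genes and 0.01 over the abundant genes. The members had a standard deviation of 0.15 and the abundant genes 0.19, again without matching for level.

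HNRNPDL (ENSG00000152795; minus strand of chr4:83343718-83351615) encodes an AU-rich element binding protein related to HNRNPD. It had 11146 normalized counts in the control, 10964 in the knockdown and 8819 in the inhibitor library, so the inhibitor library alone was low. The change was -0.34 (-0.38 to -0.30), while genes within 5 Mb had a median of 0.01. HNRNPD itself showed -0.06, and the ratio of HNRNPDL to HNRNPD reads was 0.953, 0.871 and 0.784 in the control, knockdown and inhibitor libraries. HNRNPA1L2 showed 0.36 (0.04 to 0.69), a wide interval that rests on 132 and 215 reads, and HNRNPA1 showed -0.12 (-0.14 to -0.10).

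Of the 13 SR genes, 10 had a lower value under the inhibitor than in sh-CTL, and 0 reached 1.2-fold. Of the 9074 abundant genes 4362 lay below 0, and of all 14949 listed genes 7387. The counting interval lay below 0 for 8 SR genes and above it for 1, against 27.8% and 29.9% of the abundant genes and 22.8% and 23.1% of all listed genes. TRA2A was the lowest, at the -0.25 given above. SRSF4 had 7282 normalized counts in the control, 7914 in the knockdown and 6312 in the inhibitor library. Its change was -0.21 (-0.26 to -0.16). SRSF5, SRSF6 and SRSF10 each showed -0.20. SRSF4, SRSF5 and SRSF6 are closely related classical SR proteins, whereas SRSF10 is the SR-like member named above. SRSF1, the founding SR protein, was the exception with an interval above 0, at 0.08 (0.05 to 0.10). SRSF3 and SRSF11 showed 0.00 and -0.00, and SRSF7 0.02. SRSF2, SRSF8, SRSF9 and TRA2B lay between -0.10 and -0.04. The ratio of SRSF5 to SRSF6 reads was 0.740 in sh-CTL and 0.741 in sh-CTL + PLK1i, while it was 0.905 in sh-METTL3.

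The promoters of the 4 SR genes near -0.20 are shown to set beside each other genes with like values under the inhibitor, none of which reached 1.2-fold. They were picked after their values were seen, and TRA2A had no entry in the promoter table. Each line gives the last 120 bases before the RefSeq start on the gene's own strand, with CCAAT and GGGCGG in capitals on either strand.
SRSF4: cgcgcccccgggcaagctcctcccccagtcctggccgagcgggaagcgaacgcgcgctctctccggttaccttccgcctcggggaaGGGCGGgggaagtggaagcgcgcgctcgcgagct
SRSF5: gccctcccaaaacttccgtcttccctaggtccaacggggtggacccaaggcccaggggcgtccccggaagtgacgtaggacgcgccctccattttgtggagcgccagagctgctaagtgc
SRSF6: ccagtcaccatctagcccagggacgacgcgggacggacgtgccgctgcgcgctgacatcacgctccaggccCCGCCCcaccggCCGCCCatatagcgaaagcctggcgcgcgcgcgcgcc
SRSF10: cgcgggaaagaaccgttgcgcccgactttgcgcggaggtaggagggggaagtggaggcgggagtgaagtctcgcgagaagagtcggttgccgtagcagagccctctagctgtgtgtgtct
The coordinates in GRCh38.p14 are chr1:29181901-29182020 for SRSF4 and chr1:23980328-23980447 for SRSF10, both on the minus strand, and chr14:69767022-69767141 for SRSF5 and chr20:43457776-43457895 for SRSF6 on the plus strand. SRSF4 held 1 match, SRSF6 held 2 and the others 0. Of the 38 members, 35 had an entry of 300 bases in the RefSeq promoter table. Over these 300 bases, 250 before and 50 after the start, CCAAT on either strand was found in 2 of 11 SR promoters and 15 of 24 hnRNP promoters. Of all 27305 promoters 35.7% held it. GGGCGG was found in 5 of 11 SR and 19 of 24 hnRNP promoters, against 44.6%. The 27305 promoters include those of genes not listed here, so they were not matched to the members for expression. A match is a string of letters and not a binding site.

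On the hnRNP side HNRNPA0, an intronless member that binds AU-rich RNA, had 7574 normalized counts in the control, 8238 in the knockdown and 9020 in the inhibitor library. HNRNPA3 had 32529, 33887 and 28212. HNRNPA0 was thus highest and HNRNPA3 lowest under the inhibitor, with changes of 0.25 (0.21 to 0.30) and -0.21 (-0.23 to -0.18). The ratio of HNRNPA0 to HNRNPA3 reads was 0.233 in the control, 0.243 in the knockdown and 0.320 in the inhibitor library. HNRNPAB had 16310, 15064 and 18762 normalized counts and a change of 0.20 (0.17 to 0.23), and RBMX showed 0.19 (0.16 to 0.22). RBMXL1, an intronless copy of RBMX whose reads may be shared with it, showed 0.28 (0.15 to 0.42). HNRNPLL, known for CD45 splicing in lymphocytes, had 2413, 2445 and 2055 normalized counts and a change of -0.23 (-0.32 to -0.14). PTBP2 showed 0.17 (0.03 to 0.31) and PTBP1 -0.13 (-0.15 to -0.10), so that the ratio of PTBP2 to PTBP1 reads was 0.0352 in the control, 0.0313 in the knockdown and 0.0433 in the inhibitor library.

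The other 14 hnRNP genes, which include the abundant HNRNPA2B1, HNRNPC, HNRNPK, HNRNPH1 and HNRNPU, lay between -0.13 (HNRNPUL2) and 0.07 (HNRNPF) under the inhibitor. HNRNPUL2-BSCL2, a read-through gene that overlaps HNRNPUL2, showed 0.33 (0.23 to 0.43) under the inhibitor and 0.15 in sh-METTL3. Its reads may be split with those of HNRNPUL2, so the value of HNRNPUL2 is uncertain.

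**Figure D4:**
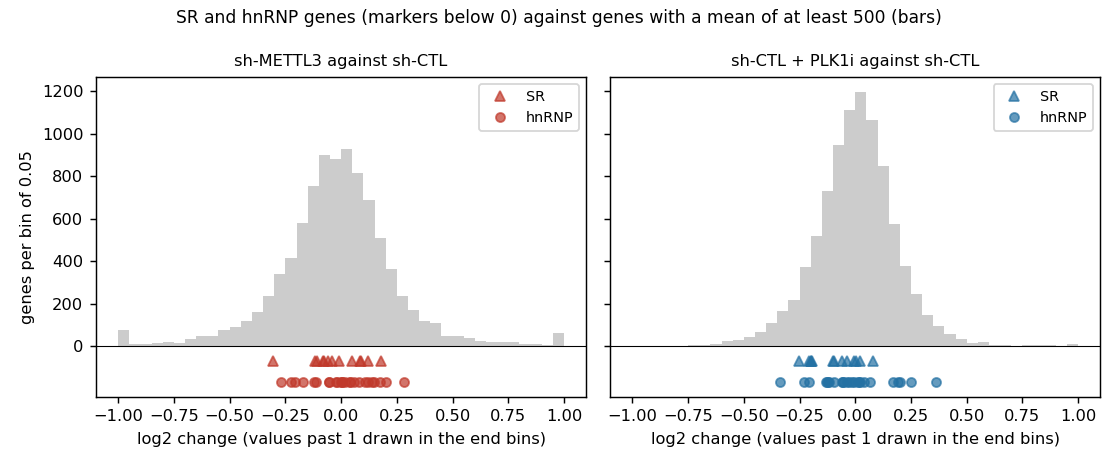
log2 change of the 13 SR genes (triangles) and 25 hnRNP genes (circles), drawn under a histogram of the 9074 genes averaging 500 normalized counts or more (bars, genes per bin of 0.05, with values past 1 in the end bins). The members lie within the central part of the histogram in both comparisons, between -0.31 and 0.28 in sh-METTL3 and between -0.34 and 0.36 in sh-CTL + PLK1i.

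The 2 treated libraries were also set against each other. In sh-METTL3, compared with sh-CTL + PLK1i, HNRNPA1, SRSF5, SRSF4, HNRNPDL, PTBP1 and HNRNPA3 were higher and HNRNPA1L2 and HNRNPAB were lower. These 8 of 38 members (21.1%) stood beside 45.6% of all listed genes and 32.6% of the abundant ones, again not matched for level. The 6 that were higher compare with 23.3% of all listed genes and the 2 that were lower with 22.3%. At 1.5-fold HNRNPA1L2 was the 1 member left, against 18.3% of all listed genes, and at 2-fold there were 0, against 7.47%. HNRNPA1 differed by 0.40 (0.39 to 0.42), SRSF5 by 0.38 (0.33 to 0.42) and SRSF4 by 0.33 (0.28 to 0.37). HNRNPDL differed by 0.31, PTBP1 by 0.30 and HNRNPA3 by 0.26. The genes within 5 Mb of PTBP1 had a median of 0.25 in this comparison and those of HNRNPA3 0.074, and after these were subtracted neither gene reached 1.2-fold, which left 4 higher members. On the low side were HNRNPAB at -0.32 (-0.35 to -0.29) and HNRNPA1L2 at -0.58 (-0.90 to -0.28). SRSF4, SRSF5, PTBP1, HNRNPA3 and HNRNPAB did not reach 1.2-fold against sh-CTL in either library. The control value of each lay between the 2 treated ones. The median was 0.09 for SR genes and 0.04 for hnRNP genes, against 0.00 for all listed genes.

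Some annotated features differed in frequency between the members and all listed protein-coding genes. At least 1 annotated transcript marked for nonsense-mediated decay existed in 13 of 13 SR genes and 17 of 25 hnRNP genes, against 48.2% of 12206 listed protein-coding genes. A transcript with a retained intron was annotated in 11 SR and 18 hnRNP genes, against 60.3%. The median number of annotated transcripts was 12 in SR, 15 in hnRNP and 8 in all listed protein-coding genes. A gene with more annotated transcripts has more chances to hold either kind, and the counts were not adjusted for this. The median GC content of the canonical transcript was 41.0% in SR, 42.4% in hnRNP and 48.8% in all listed protein-coding genes. The letters GGACT, a common form of the m6A consensus, occurred at a median of 0.52 per kilobase in SR genes and 0.63 in hnRNP genes, against 0.93 overall. These counts describe the annotation, and they were not adjusted for level of expression. The GGACT density was not adjusted for the lower GC content of the members. The values here are totals per gene, so a shift between a productive isoform and one bound for decay could not be seen.

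The other genes of the splicing pathway came from lists chosen with earlier results of these data known. Their counts at 1.2-fold can be read against the 37.2% (sh-METTL3) and 27.6% (sh-CTL + PLK1i) of all listed genes given above. Over the abundant genes, to which most list genes belong, the shares were 23.0% and 12.8%. Of 11 listed SR kinases and phosphatases, 1 was higher in sh-METTL3, and it was the kinase DYRK1B, at 0.41 (0.10 to 0.73) with 137, 230 and 194 reads in the control, knockdown and inhibitor libraries. DYRK1B lay below the mean of 200 set for naming and was named after its value was seen. Under the inhibitor 0 of these 11 differed by 1.2-fold. The SRPK and CLK kinases that phosphorylate SR proteins thus stayed within 1.2-fold of sh-CTL in both libraries. Of 10 genes for nuclear import and arginine methylation of these proteins, 0 differed in either comparison, and the largest value was 0.23.

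Among 20 RS-domain coactivators, 1 was higher and 1 lower in sh-METTL3 and 0 under the inhibitor. LUC7L2, a U1 snRNP associated protein, had 2998 normalized counts in the control, 4368 in the knockdown and 3350 in the inhibitor library. Its change of 0.54 (0.47 to 0.61) in sh-METTL3 ran against the -0.25 median of chromosome 7, on which it lies. RSRC1 was the lower one at -0.39 (-0.48 to -0.30).

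Of 11 factors of U2 and branch point recognition, 2 were lower in sh-METTL3, while 1 was higher and 2 were lower under the inhibitor. U2AF2, the large subunit of the factor that binds the polypyrimidine tract at 3′ splice sites, had 14456 normalized counts in the control, 10112 in the knockdown and 15135 in the inhibitor library. It showed -0.52 (-0.55 to -0.48) in sh-METTL3, beyond any SR or hnRNP gene, where its neighbours had a median of -0.02. RBM10 was the other, at -0.27, with a neighbour median of -0.24. Under the inhibitor RBM23 showed -0.50 (-0.60 to -0.40) and ZRSR2, of the minor spliceosome, 0.32 (0.14 to 0.51). U2AF1L4, named after its value was seen, had 106, 130 and 102 reads and a change of -0.39 (-0.80 to 0.01).

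In the core spliceosome, 1 of 30 genes was higher in sh-METTL3 and 1 was lower under the inhibitor. SF3B6, the subunit of SF3B that contacts the branch point region, showed 0.40 (0.33 to 0.46) in sh-METTL3. SF3B3 showed -0.34 (-0.37 to -0.32) under the inhibitor. The other 28 genes, among them those for the Sm proteins, stayed within 1.2-fold in both.

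The list of other splicing regulators held 34 symbols, of which 29 were listed in 30 entries, since MATR3 appeared more than once. In sh-METTL3 4 were higher and 3 lower. RBFOX2, which binds UGCAUG and regulates exons of the epithelial to mesenchymal switch, had 5490 normalized counts in the control, 7642 in the knockdown and 4597 in the inhibitor library, with changes of 0.48 (0.43 to 0.53) and -0.26 (-0.31 to -0.20). CIRBP, TAF15 and KHSRP showed 0.29, 0.29 and 0.28 in sh-METTL3, and FUBP1 showed -0.29. The genes within 5 Mb had medians of 0.17 for CIRBP and 0.18 for KHSRP, on chromosome 19, against -0.00 for TAF15 and 0.02 for FUBP1. The other 2 lower genes, ESRP1 and KHDRBS3, had at most 26 and 22 reads in any library, and ESRP1, a regulator of epithelial exons, had 26, 3 and 15. Under the inhibitor PSPC1 was higher at 0.27, and TIA1 was lower at -0.32, as was ESRP1.

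Of 15 nonsense-mediated decay factors, 2 were lower in sh-METTL3 and 1 was higher under the inhibitor. UPF2 had 3265 normalized counts in the control, 2236 in the knockdown and 3432 in the inhibitor library, a change of -0.55 (-0.63 to -0.47) in sh-METTL3 where its neighbours had a median of -0.45. SMG5 showed -0.35 (-0.40 to -0.30) with a neighbour median of -0.00. UPF3B showed 0.29 (0.19 to 0.40) under the inhibitor. The medians of the list were -0.01 and 0.07.

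**Figure D5:**
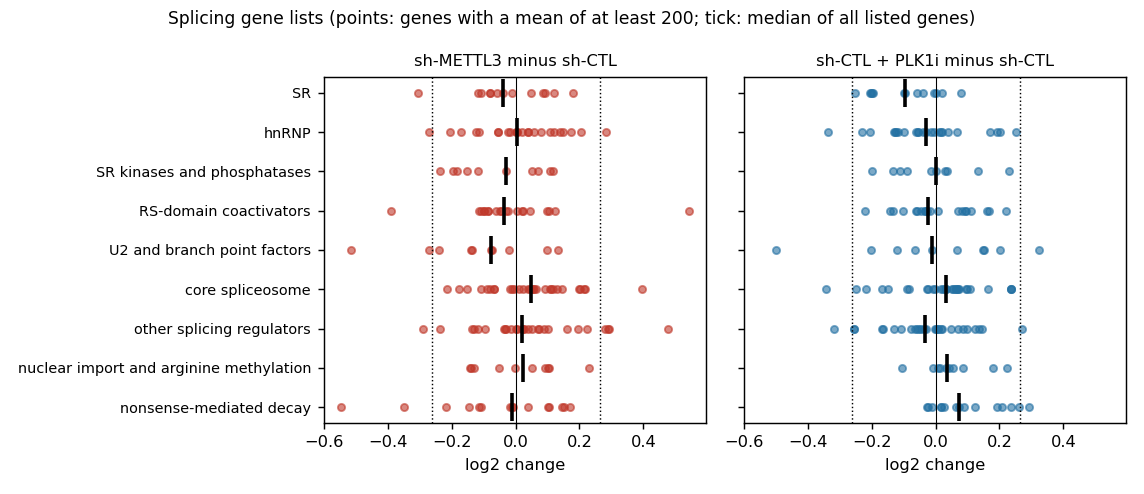
log2 change against sh-CTL of the SR and hnRNP genes and of 7 lists of related genes, 1 point for each gene averaging 200 normalized counts or more, with 1.2-fold as dotted lines and the median of all listed genes of a list as a black tick. LUC7L2 at 0.54, RBFOX2 at 0.48, U2AF2 at -0.52 and UPF2 at -0.55 stand outside the range of the SR and hnRNP points in sh-METTL3, as RBM23 at -0.50 does in sh-CTL + PLK1i.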

How the data were processed

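The deposited data were 1 table with the log2 expression of 14949 genes in 3 libraries of polyadenylated RNA made with a stranded kit. The submitters' processing notes name FastQC 0.11.9, STAR 2.7.10, RSEM 1.3.3 and hg19, with no roles; the scaling method was not given in the sources used here. The deposited log2 values equal log2 of a scaled count plus 4. Undoing this gave whole reads for 100% of values under 2000 reads (tolerance 0.1 read), with size factors of 0.858 (sh-CTL), 1.08 (sh-METTL3) and 1.09 (sh-CTL + PLK1i). Depth was 37449337, 46944892 and 47727490 reads, and 1 read was worth 1.17, 0.927 and 0.921 normalized counts. Abbreviations in the column names tied the columns to samples, and 0 other sample columns were present. The filter, a mean of 1 normalized count, kept every member.

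With 1 library per group no test was possible. Changes used a pseudocount of 1 and intervals were exact Clopper-Pearson (95%), which cover counting error only, because without molecular identifiers amplified reads may stem from 1 molecule. The code was tested on simulated data. The identifier stood beside the symbol in the cells of SRSF5 and HNRNPL. SRSF12 was not listed. Positions (GRCh37), GC content and transcript lengths came from GENCODE 44 for all 38 members, and promoters from RefSeq (GRCh38.p14), which gave 35. Reads were taken to be those of the gene named, although copies, overlapping genes and read-through genes may share them. Python 3.11.15, numpy 2.4.6, pandas 2.3.3 and scipy 1.17.1 were used.

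The members and lists were chosen with earlier results of these data known. The rule for naming took METTL3, the 8 members with the largest change in each comparison, the 5 most abundant per kilobase, and list genes past 1.2-fold with a mean of at least 200. Alternatives were other size factors, pseudocounts, filters, folds, subtraction of chromosome or neighbour medians, and removal of a trend with GC content and length.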

Additional observations from a re-analysis of the deposited data

How the results depend on the processing

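No paired analysis was possible because each group held 1 library, and for the same reason no library could be left out. Over 13 alternatives, 96 of 105 comparisons of counts and medians with their main value stayed within 1.5 times the count or within counting error, and 9 moved. Some alternatives could hardly move a value. Recomputed size factors nearly equalled those recovered, the filter had kept every member, and the pseudocounts tried are small beside most members' counts. The tallies here and for single members below include these settings, so they overstate stability. The number of members at least 1.2-fold higher or lower in sh-METTL3 against sh-CTL went from 3 to 1 after the median of the same chromosome was subtracted, where TRA2A (-0.06) and HNRNPH3 (-0.26) fell short, and to 0 at 1.5-fold and 0 at 2-fold. For sh-CTL + PLK1i against sh-CTL it went from 2 to 1 with a mean of at least 200, which removes HNRNPA1L2, and to 0 at 1.5-fold and 0 at 2-fold. For sh-METTL3 against sh-CTL + PLK1i it went from 8 to 1 at 1.5-fold and 0 at 2-fold. The SR median in sh-METTL3 changed from -0.04 to 0.069 after the median of genes within 5 Mb was subtracted, so its sign rests on that choice. The same subtraction left 3 members in sh-METTL3 against sh-CTL, where TRA2A fell short and HNRNPA1L2 (-0.30) passed, and 6 in sh-METTL3 against sh-CTL + PLK1i, where PTBP1 and HNRNPA3 fell short. With upper-quartile factors HNRNPH3 fell short in sh-METTL3, and TRA2A reached 1.2-fold under the inhibitor (-0.27). Among single members, 1145 values were within counting error of the main value and 106 moved, of which 50 moved with the 5 Mb subtraction, 28 with the chromosome median, 23 with upper-quartile factors and 5 with the GC and length trend. Rescaling shifted the median of all genes by at most 0.036. Depth limits HNRNPA1L2 most, with 132 to 215 reads, and the 1.2-fold limit lies close to HNRNPA1, HNRNPH3 and HNRNPA3, so these calls can turn on small shifts. Variation between cultures and between hairpin lines was not measured.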
